A study of Mus musculus with 64 samples.

Results

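The hearts described here came from 5 Pkp2-cKO mice of the PKP2-m1e14 group, and the question was how the right ventricle (RV) differed from the left ventricle (LV) of the same heart after an early, high dose of a Pkp2 vector. The members were chosen by sample title alone, as the RV and LV libraries of each PKP2-m1e14 animal that was not dosed at 2.5 weeks, which gave 10 of the 64 RNA sequencing libraries of the series, from 5 of its 32 animals. Pkp2-cKO mice carry floxed Pkp2 alleles and a tamoxifen-activated Cre recombinase (αMyHC-Cre-ER(T2)) on a C57BL6 background. The Cre is driven by the cardiac myosin heavy chain promoter, so tamoxifen deletes Pkp2 from cardiomyocytes, and the other cells of the ventricle keep their own Pkp2. The PKP2-m1e14 animals received AAV9:mPkp2, an adeno-associated virus of serotype 9 that carries mouse Pkp2, at 1e14 vector genomes per kg in a single retro-orbital injection. Their labels place that dose 1 week before tamoxifen, while the order of dose and tamoxifen is not described in the same way throughout the study. Another 3 sets of hearts served for comparison, each also with 1 RV and 1 LV library per animal. PKP2-m3e13 (8 animals) were cKO mice given 3e13 vector genomes per kg at the same time. PKP2-m1e14-2.5wk (6 animals) were cKO mice given 1e14 vector genomes per kg at 2.5 weeks after tamoxifen. WT (9 animals) were Cre-negative Pkp2 fl/fl littermates injected with HBSS, the vehicle. Tissue was taken 51 weeks after induction in all 4 groups.

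Pkp2 encodes plakophilin-2, an armadillo protein of the desmosome, the junction that anchors the intermediate filaments of neighbouring cardiomyocytes to each other. Loss of plakophilin-2 causes arrhythmogenic right ventricular cardiomyopathy, a disease in which the RV is usually affected first and most. The 2 ventricles also differ in a healthy heart: they arise from different progenitor fields, the RV pumps against the low pressure of the lung circulation and the LV against that of the body, and wall load, ion channels and metabolism differ between them.

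Levels below are in CPM (counts per 1000000 counts), that is, a gene's share of the counts of all nuclear genes in its library after normalisation between libraries. CPM does not correct for gene length, so levels were compared between ventricles and not between genes. Where 5 values are listed for a ventricle, they stand in the order of animals PKP2_m1e14_2034, PKP2_m1e14_2043, PKP2_m1e14_5726, PKP2_m1e14_5822 and PKP2_m1e14_5825. A log2 difference is the edgeR estimate of RV minus LV within animals. A positive value means a higher level in the RV, and 1 means a factor of 2. The standard error (SE) beside it is an approximate value, worked out from the estimate and the F statistic of its test. A gene was called changed where the adjusted p of edgeR's quasi-likelihood test (Benjamini-Hochberg over all genes tested) was below 0.05. In bulk tissue, fewer cells of a type and less RNA per cell cannot be told apart.

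Pkp2 did not differ between the sides of these hearts beyond its spread between animals. Counts of Pkp2 hold the transcripts of the vector and of the animal's own gene together. Pkp2 measured 1228, 1174, 497, 1845 and 1768 CPM in the RV and 1503, 975, 477, 2020 and 2100 CPM in the LV. Animal PKP2_m1e14_5726 had the lowest level in both ventricles, and the RV was the higher side in 2 animals and the lower in 3. The mean difference was -0.0687 on the log2 CPM scale (SD 0.232, n = 5 animals, two-sided exact sign-flip test p = 0.562), and edgeR gave a log2 difference of -0.09 (SE 0.0915, adjusted p = 0.591). For scale, Pkp2 averaged 1302 ± 544 CPM in the RV and 1415 ± 692 CPM in the LV of PKP2-m1e14 (SD, n = 5 each), against 149 ± 20.5 and 192 ± 18.8 CPM in the RV and LV of WT (SD, n = 9 each).

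Total counts of the 10 libraries lay between 10102984 and 13553755, of which 6617433 to 9203308 came from nuclear genes. Markers fixed for ventricular cardiomyocytes were abundant in both ventricles, with summed levels of 40000 to 51800 CPM in the RV and 30400 to 53500 CPM in the LV, and the skeletal muscle list summed to at most 2.79 CPM in the RV and 2.32 CPM in the LV. The 9 atrial markers summed to between 57.2 and 83.1 CPM in the RV, with Myl7 and Sln at 0 in all 5 libraries, and to between 66.5 and 158 CPM in the LV, with Sln at 0. A pair of properties of the libraries moved with the ventricle. Mitochondrially encoded genes took 28.9 ± 2.91% of the counts in the RV and 33.2 ± 1.86% in the LV (SD, n = 5 each). This share was lower in the RV of 5 of 5 animals, by 4.35 percentage points on average (exact sign-flip p = 0.063, the smallest that 5 animals allow). The relative effective length is the median over genes of a transcript's usable length in a library against its mean over all libraries. It depends on the length of the sequenced fragments and on the bias corrections of the authors' software, so that a higher value need not mean longer fragments. It was 0.0243 higher in the RV on the log2 scale (4 of 5 animals, exact sign-flip p = 0.125), and in the RV library of animal PKP2_m1e14_5726 it reached 0.0656. That library also had the lowest mitochondrial share, 23.8%. In WT the same length measure was 0.0733 higher in the RV, in 9 of 9 animals (exact sign-flip p = 0.00391), and the mitochondrial share was 6.2 percentage points lower, in 7 of 9 animals (p = 0.0234). The part of these properties in the expression differences was not tested directly, and the counts obtained with the length as a covariate are given below.

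**Figure D1:**
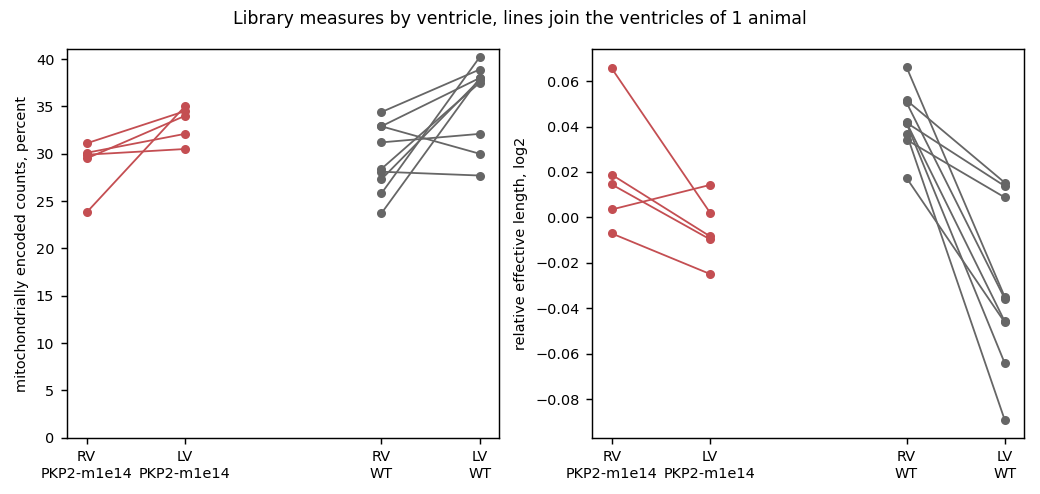
Share of counts from mitochondrially encoded genes (percent) and relative effective length (log2) in each library of PKP2-m1e14 (red, left) and WT (grey, right), RV left of LV, with lines joining the ventricles of 1 animal. In PKP2-m1e14 all 5 lines for the mitochondrial share run lower in the RV, and the RV library of animal PKP2_m1e14_5726 has the lowest share (23.8%) and the highest length (0.0656) of the group.

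Of 12947 genes tested, 905 were called different between the ventricles of PKP2-m1e14 hearts (6.99%). Of these, 445 were higher in the RV (3.44% of the genes tested) and 460 were lower (3.55%). The differences were modest. Their median size was 0.505 on the log2 scale, 89 exceeded a factor of 2, and the smallest adjusted p was 0.00769. Without regard to any test, all 5 RV libraries lay above all 5 LV libraries for 439 genes (3.39%) and below them for 354 genes (2.73%), and the RV was the higher side in all 5 animals for 1736 genes (13.4%) and the lower for 1346 genes (10.4%). The median log2 difference over all genes was -0.00918. With 5 pairs of libraries these calls rest on narrow ground: without animal PKP2_m1e14_5822 no gene was called by edgeR (2317 had an unadjusted p below 0.05), and with the relative effective length as a covariate 1 gene was called (1483 at an unadjusted p below 0.05). Without animal PKP2_m1e14_2034, 85 genes were called, without animal PKP2_m1e14_5726, 93, and without animal PKP2_m1e14_5825, 170. Direction was followed for 91 of the 905 genes, many of them chosen for a small p or for lying on 1 side in all 5 animals, and each of these kept its sign in every alternative that was run.

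Genes of mitochondrial fuel oxidation were higher in the RV. The heart draws most of its energy from fatty acids, which are carried into mitochondria, split by beta-oxidation and burned in the tricarboxylic acid cycle, whose electrons feed the respiratory chain. Of 20 genes tested of the tricarboxylic acid cycle and pyruvate entry, 11 were higher in the RV and none lower, with a median log2 difference of 0.304. Of 32 genes of fatty acid oxidation, 12 were higher and none lower (median 0.317). Of 40 nuclear genes of respiratory complexes II to V, 15 were higher and none lower (median 0.294), and of 21 genes of branched-chain amino acid breakdown, 6 were higher and none lower (median 0.285). Complex I gave 4 higher and 1 lower of 34 (median 0.16), and the mitochondrial ribosome 1 higher of 41 (median 0.159). These shares stand against 3.44% and 3.55% of all genes called higher and lower, and these medians against -0.00918 over all genes. The medians of the fuel lists were above 0 in each of the 5 animals: the median log2 ratio of the fatty acid oxidation genes ranged from 0.15 to 0.496, that of the tricarboxylic acid cycle from 0.165 to 0.488, and that of complexes II to V from 0.0736 to 0.577. Animal PKP2_m1e14_5726, whose RV library stood apart, had the highest value in all 3 lists. Without animal PKP2_m1e14_5726, 1 member of fatty acid oxidation, none of the tricarboxylic acid cycle and 4 of complexes II to V were called by edgeR, with medians of 0.267, 0.287 and 0.242. Without animal PKP2_m1e14_5822 no member of these lists was called, while their medians were 0.301, 0.3 and 0.272.

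Decr1 encodes the mitochondrial 2,4-dienoyl-CoA reductase, which prepares polyunsaturated fatty acids for beta-oxidation. It measured 511, 389, 533, 389 and 318 CPM in the RV, against 312, 239, 303, 250 and 239 CPM in the LV. Every RV library lay above every LV library, a 1.55-fold difference (log2 0.64, SE 0.0708, edgeR adjusted p = 0.0101). Acadl, the long-chain acyl-CoA dehydrogenase that takes the first step of the cycle, was 1.33-fold higher, with means of 1679 ± 193 CPM in the RV and 1250 ± 184 CPM in the LV (SD, n = 5 each; log2 0.41, edgeR adjusted p = 0.0216). Slc25a20, the carrier that exchanges acylcarnitine for carnitine across the inner membrane, was 1.41-fold higher (edgeR adjusted p = 0.0199). Further members called higher were the pyruvate dehydrogenase kinase Pdk4 (log2 0.62), which holds glucose carbon out of the cycle, and the coactivator Ppargc1a (0.32), which drives mitochondrial gene expression. The fatty acid transporter Cd36 (log2 0.29, edgeR adjusted p = 0.067) and Cpt1b, the muscle enzyme that commits fatty acids to oxidation (0.17, adjusted p = 0.265), did not pass.

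Hadha and Hadhb encode the alpha and beta subunits of the mitochondrial trifunctional protein, which carries out the last steps of long-chain beta-oxidation, and the genes lie head to head. Hadhb was higher in the RV, at 1504, 1210, 1785, 1097 and 1007 CPM against 1093, 907, 1057, 790 and 861 CPM in the LV (log2 0.45, SE 0.0795, edgeR adjusted p = 0.0209). Hadha, which was added after its values were seen because of its shared promoter, measured 1268, 1146, 1323, 949 and 865 CPM in the RV and 1219, 761, 943, 748 and 842 CPM in the LV (log2 0.28, SE 0.0946, edgeR adjusted p = 0.109). Both were on the higher side in the RV of 5 of 5 animals, with overlapping groups, and only Hadhb passed the test. The library kit was a stranded one, and whether the counting used the strand was not given in the sources used here, so the separation of reads from the overlapping first exons of this pair is uncertain. The promoters are shown because a single stretch of DNA serves both genes. They are the RefSeq windows from 250 bases before to 50 after each start on GRCm38.p6, for Hadha chr5:30154931-30155230 on the minus strand and for Hadhb chr5:30155003-30155302 on the plus strand, each printed in its own reading direction, with the 228 bases that the windows share in capitals.
Hadha: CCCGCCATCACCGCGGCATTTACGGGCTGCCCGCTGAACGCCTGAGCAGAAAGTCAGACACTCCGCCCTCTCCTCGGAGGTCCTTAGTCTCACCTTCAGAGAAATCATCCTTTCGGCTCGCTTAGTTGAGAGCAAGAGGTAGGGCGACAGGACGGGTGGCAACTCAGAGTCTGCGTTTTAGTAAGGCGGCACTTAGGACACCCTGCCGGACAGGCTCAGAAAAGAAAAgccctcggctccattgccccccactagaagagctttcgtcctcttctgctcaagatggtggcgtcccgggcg
Hadhb: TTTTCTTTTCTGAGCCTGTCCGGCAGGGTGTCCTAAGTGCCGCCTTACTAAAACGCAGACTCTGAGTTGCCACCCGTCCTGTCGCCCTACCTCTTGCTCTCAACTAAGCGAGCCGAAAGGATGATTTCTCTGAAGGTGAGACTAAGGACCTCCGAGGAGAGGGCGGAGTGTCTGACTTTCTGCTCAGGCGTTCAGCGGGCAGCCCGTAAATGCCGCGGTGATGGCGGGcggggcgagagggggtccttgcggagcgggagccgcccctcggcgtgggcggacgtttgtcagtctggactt

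A motif bound by the estrogen-related receptors, nuclear receptors that activate mitochondrial genes, was searched on both strands of such windows (AAGGTCA, reverse TGACCTT). Among the 48 genes of the fuel and respiratory lists that were called higher in the RV, 42 had a promoter in the RefSeq table, and 2 of these held the motif (4.76%), Sdhd and Atp5l. Among the members tested and not called higher, 8 of 81 held it (9.88%), and among all genes tested in PKP2-m1e14 it stood in the promoter of 367 of the 9817 that had one (3.74%). Of all 27025 genes with a RefSeq promoter, 5.38% held it, or 4.72% of 32851 promoters. A match is a description of these letters in these windows only.

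In the tricarboxylic acid cycle, Dlat, the acetyltransferase core of pyruvate dehydrogenase, measured 512, 342, 506, 478 and 405 CPM in the RV and 361, 264, 309, 321 and 339 CPM in the LV (log2 0.46, SE 0.075, edgeR adjusted p = 0.0178). Each animal was higher in its RV, although animal PKP2_m1e14_2043's RV stood below animal PKP2_m1e14_2034's LV. Fh1, the fumarate hydratase of the cycle, showed the same 1.38-fold difference with no overlap (334 ± 50.6 CPM in the RV and 238 ± 21.1 CPM in the LV, SD, n = 5 each; edgeR adjusted p = 0.0145). Mpc1, a subunit of the carrier that brings pyruvate into mitochondria, was 1.35-fold higher (adjusted p = 0.0204). Mdh1, the cytosolic malate dehydrogenase, is one of the 11 called members of this list, but its levels were uneven, at 62.1, 1.4, 175, 18.9 and 48.9 CPM in the RV and 1.38, 2.14, 2.19, 2.13 and 0.892 CPM in the LV. Animal PKP2_m1e14_2043 did not share the difference. Levels this low and this scattered for an abundant cardiac enzyme leave the assignment of reads to this gene uncertain.

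The nuclear genes of the respiratory chain showed the pattern in individual subunits. The mitochondrially encoded genes, which were left out of these tests, went the other way as a share of counts (28.9% in the RV and 33.2% in the LV, lower in the RV of 5 of 5 animals). Uqcrc2, a core subunit of complex III, measured 1250, 830, 1281, 1152 and 922 CPM in the RV, against 813, 582, 676, 703 and 673 CPM in the LV, a 1.54-fold difference in which the lowest RV library still exceeded the highest LV library (log2 0.62, SE 0.0779, edgeR adjusted p = 0.012). Sdhb and Sdhd of complex II, which hands electrons from succinate to ubiquinone, were 1.37-fold (adjusted p = 0.0126) and 1.59-fold higher (adjusted p = 0.0138). Atp5c1, the gamma subunit that turns inside ATP synthase, was 1.43-fold higher (adjusted p = 0.0126). In complex I, Ndufb5, Ndufs3 and Ndufs1 were 1.37-, 1.34- and 1.25-fold higher. Ndufa13 was the 1 member called lower, at 49.2, 29, 48.6, 45.2 and 45.2 CPM in the RV and 62.1, 34.1, 64.7, 57.5 and 66.1 CPM in the LV (log2 -0.40, adjusted p = 0.0261), and its exons overlap those of Yjefn3 on the same strand.

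Breakdown of the branched-chain amino acids leucine, isoleucine and valine is controlled by a kinase and by the phosphatase Ppm1k, which switches the branched-chain ketoacid dehydrogenase on. Ppm1k measured 643, 543, 439, 537 and 475 CPM in the RV, against 356, 324, 283, 314 and 317 CPM in the LV. The RV libraries all lay above the LV libraries, by 1.62-fold (log2 0.70, SE 0.066, edgeR adjusted p = 0.00979). Aldh6a1, which completes valine breakdown, was 1.45-fold higher (412 ± 56.6 CPM in the RV and 279 ± 27.9 CPM in the LV, SD, n = 5 each; adjusted p = 0.012). Pccb of propionyl-CoA carboxylase and Acadsb, the dehydrogenase of isoleucine breakdown, were 1.44- and 1.29-fold higher (adjusted p = 0.0156 and 0.019).

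**Figure D2:**
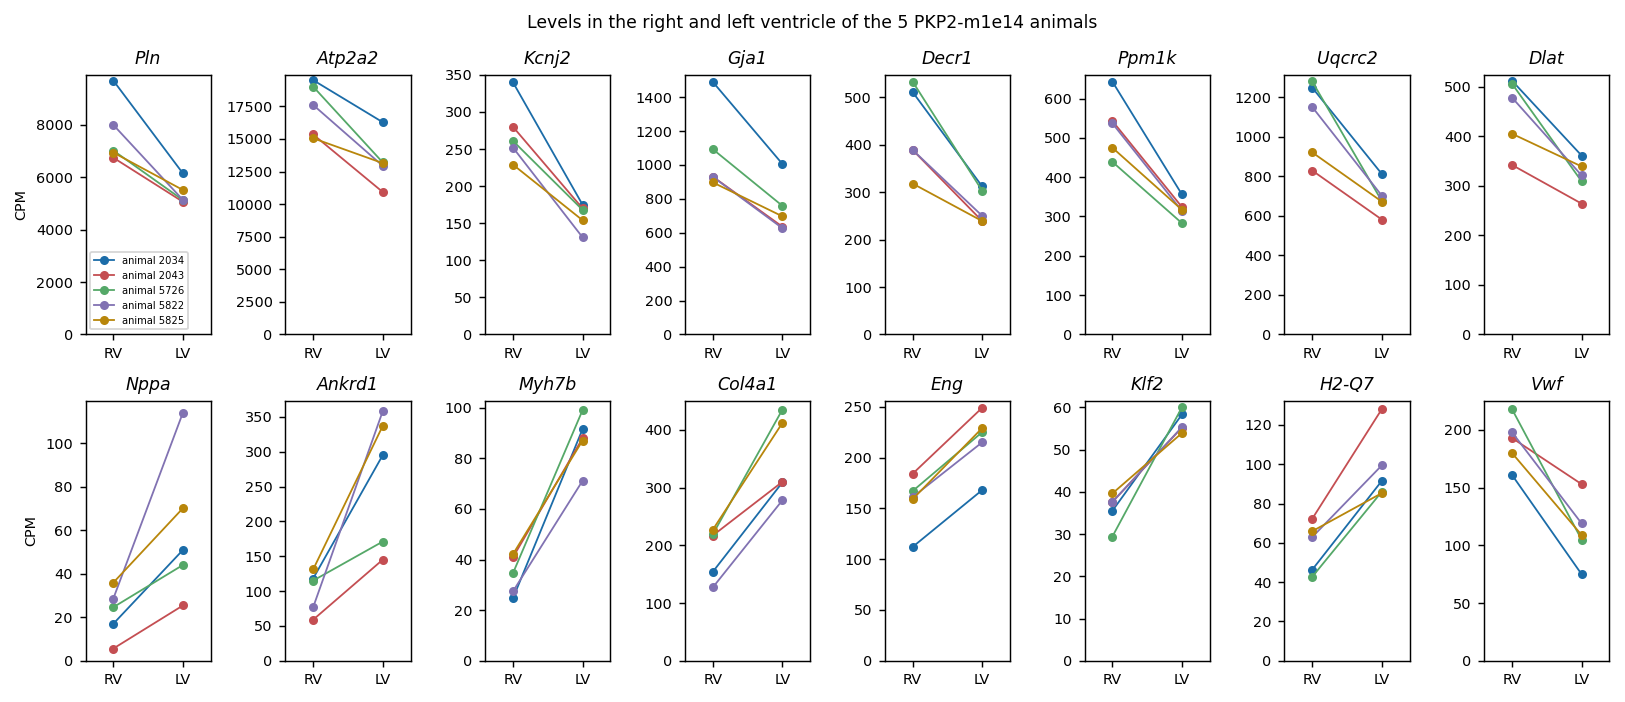
CPM of 16 genes in the RV (left) and LV (right) of each PKP2-m1e14 heart, on an axis of its own for each gene, with lines joining the ventricles of 1 animal. The upper panels hold genes higher in the RV, such as Ppm1k and Uqcrc2, and the lower panels hold mostly genes lower in the RV, such as Myh7b and Col4a1, with Vwf as the exception.

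Some genes of calcium cycling and repolarisation were higher in the RV. Of 17 calcium handling genes tested, 4 were higher and none lower (median log2 difference 0.0808), and of 22 ion channel genes, 3 were higher and none lower (median 0.172), against 3.44% of all genes called higher. The median per animal was above 0 in 4 of 5 hearts for either list, and at its lowest -0.0184 for calcium handling and -0.18 for ion channels. Pln encodes phospholamban, the brake on the calcium pump of the sarcoplasmic reticulum. It measured 9683, 6742, 7015, 7993 and 6939 CPM in the RV and 6143, 5060, 5126, 5131 and 5510 CPM in the LV (log2 0.48, SE 0.0724, edgeR adjusted p = 0.0164), with no overlap. The pump itself, Atp2a2 (SERCA2), measured 19512, 15343, 19015, 17609 and 15052 CPM in the RV and 16283, 10928, 13200, 12934 and 13144 CPM in the LV (log2 0.36, SE 0.0707, adjusted p = 0.025). Both the pump and its brake were thus higher in the RV of 5 of 5 animals. Trdn, which encodes triadin of the calcium release complex, was 1.43-fold higher (adjusted p = 0.0177), and Cacna2d1, an auxiliary subunit of the L-type calcium channel, was 1.51-fold higher (adjusted p = 0.00979), each without overlap. 

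The 3 ion channel genes that passed all form potassium channels. Kcnd2 is a pore subunit of the transient outward current. Its levels were 98.5, 67, 70.2, 78.5 and 59.5 CPM in the RV, against 35.8, 36.7, 26, 17.1 and 29.2 CPM in the LV, which made it 2.57-fold higher (log2 1.36, SE 0.17, edgeR adjusted p = 0.012). Kcnj2, the main inward rectifier that sets the resting potential, measured 340, 280, 261, 252 and 229 CPM in the RV and 175, 170, 168, 131 and 154 CPM in the LV (log2 0.74, SE 0.0805, adjusted p = 0.00979). Kcnj3, a subunit of the acetylcholine-activated channel, was likewise 1.68-fold higher (349 ± 45.8 CPM in the RV and 205 ± 27.9 CPM in the LV, SD, n = 5 each; adjusted p = 0.0126). No library of one ventricle reached into the range of the other for any of these 3 genes.

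Cell junction genes differed by member. Of 7 desmosome genes tested besides Pkp2, the cadherins Dsc2 and Dsg2, which bridge the gap between cells, were higher in the RV, and none was lower. The median log2 difference of the desmosome list was -0.0317, with 4 of 7 estimates below 0. Among all genes tested, 3.44% were called higher. Dsc2 measured 186, 139, 146, 158 and 155 CPM in the RV and 106, 110, 97.6, 95.6 and 92.8 CPM in the LV (log2 0.62, SE 0.0847, edgeR adjusted p = 0.0137). Dsg2 measured 338, 351, 260, 308 and 298 CPM in the RV and 257, 181, 208, 208 and 220 CPM in the LV (log2 0.51, SE 0.098, adjusted p = 0.0242). Both cadherins had RV libraries above all LV libraries, while Pkp2, their partner inside the cell, did not differ beyond its spread. Of 18 genes of the rest of the intercalated disc, Gja1 and Ctnna3 were higher and none was lower (list median 0.0318, with 7 of 18 estimates below 0). Gja1 encodes connexin 43, the main gap junction protein of ventricular muscle, and measured 1490, 931, 1093, 930 and 897 CPM in the RV and 1006, 636, 759, 627 and 697 CPM in the LV (log2 0.49, SE 0.0631, adjusted p = 0.0126). Ctnna3, the alpha-T-catenin that ties adherens junctions to desmosomes, was 1.3-fold higher with means of 206 ± 12.3 CPM in the RV and 156 ± 5.87 CPM in the LV (SD, n = 5 each; adjusted p = 0.0182).

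Within the sarcomere list, 1 gene was higher and 1 lower of 23, with a median of -0.00702. This is near the 3.44% and 3.55% of all genes called higher and lower. Tnni3, cardiac troponin I, was 1.3-fold higher (log2 0.37, edgeR adjusted p = 0.0378). Myh7, the slow beta myosin heavy chain, measured 382, 3167, 378, 534 and 629 CPM in the RV and 1546, 2887, 755, 2076 and 1840 CPM in the LV (log2 -1.31, SE 0.29, adjusted p = 0.0354). It was lower in the RV of 4 animals, and animal PKP2_m1e14_2043 had a high level on both sides. Myh7 overlaps the antisense RNA Mhrt, and although the kit was stranded, use of the strand in counting was not given in the sources used here. Myh7b, a related myosin whose intron holds a microRNA of slow muscle, was the clearest of the muscle genes, at 24.7, 40.9, 34.6, 27.4 and 42.1 CPM in the RV and 91.5, 87.9, 99, 71.1 and 87 CPM in the LV. The RV stood 2.65-fold below the LV, with a wide gap between the groups (log2 -1.40, SE 0.13, adjusted p = 0.00979).

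Stress and load genes were lower in the RV. Of 11 genes of this list that passed the filter on low counts, 5 were lower and none higher (median log2 difference -0.823), against 3.55% of all genes called lower. The remaining 3 of its 14 members (Gdf15, Spp1 and Timp1) had too few counts to be tested. Nppa encodes atrial natriuretic peptide, which the ventricle makes under load, and measured 17, 5.61, 24.6, 28.6 and 35.9 CPM in the RV, against 50.9, 25.4, 44, 114 and 70.1 CPM in the LV. The RV was lower in every animal, by 2.82-fold over all, with overlapping groups (log2 -1.49, SE 0.20, edgeR adjusted p = 0.0126). Nppb, brain natriuretic peptide, was 2.29-fold lower (39.3 ± 17 CPM in the RV and 85.1 ± 22.9 CPM in the LV, SD, n = 5 each; log2 -1.20, adjusted p = 0.0228). Ankrd1, a titin-bound sensor of stretch, measured 118, 58.9, 115, 76.8 and 131 CPM in the RV and 295, 145, 171, 358 and 337 CPM in the LV, with every RV library below every LV library (log2 -1.37, SE 0.19, adjusted p = 0.0138). Ace, the angiotensin-converting enzyme, was 1.31-fold lower (adjusted p = 0.0182). Acta1, the skeletal actin re-expressed under load, stood at a log2 difference of -1.14 and did not pass (adjusted p = 0.0635). Nppa is also 1 of the 9 atrial markers, whose summed levels and absent members are given above, and the part of atrial tissue in its difference was not tested.

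Matrix genes were lower in the RV as well. Of 30 genes tested of the fibrillar and basement membrane matrix, 9 were lower and none higher (median log2 difference -0.336), against 3.55% of all genes called lower. The median per animal lay between -0.536 and -0.216. Among them were both major chains of type IV collagen, the network that gives basement membranes their strength. Col4a1 measured 154, 217, 219, 127 and 227 CPM in the RV and 309, 310, 435, 278 and 412 CPM in the LV (log2 -0.92, SE 0.0949, edgeR adjusted p = 0.00979). Col4a2 measured 96.2, 155, 147, 95.4 and 155 CPM in the RV and 263, 202, 263, 226 and 309 CPM in the LV (edgeR adjusted p = 0.0138). In both chains all 5 RV libraries lay below all 5 LV libraries, at 1.89- and 2-fold lower levels. On GRCm39, Col4a1 lies at chr8:11248423-11362826 on the minus strand and Col4a2 at chr8:11362471-11499287 on the plus strand, so that the genes run apart from a common start region. Exons of the pair overlap on opposite strands, so the separation of reads there is uncertain, as for Hadha and Hadhb. The promoter windows are printed because this pair moved together. In RefSeq on GRCm38.p6 they cover chr8:11312777-11313076 on the minus strand for Col4a1 and chr8:11312555-11312854 on the plus strand for Col4a2, each in its own reading direction, with the 78 bases that both windows hold in capitals.
Col4a1: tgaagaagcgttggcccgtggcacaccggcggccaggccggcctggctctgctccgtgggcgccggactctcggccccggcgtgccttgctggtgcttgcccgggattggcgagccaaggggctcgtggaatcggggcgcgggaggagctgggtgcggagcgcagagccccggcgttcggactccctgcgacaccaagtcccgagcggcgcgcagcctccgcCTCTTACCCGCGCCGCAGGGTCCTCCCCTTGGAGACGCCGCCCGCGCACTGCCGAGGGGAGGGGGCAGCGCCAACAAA
Col4a2: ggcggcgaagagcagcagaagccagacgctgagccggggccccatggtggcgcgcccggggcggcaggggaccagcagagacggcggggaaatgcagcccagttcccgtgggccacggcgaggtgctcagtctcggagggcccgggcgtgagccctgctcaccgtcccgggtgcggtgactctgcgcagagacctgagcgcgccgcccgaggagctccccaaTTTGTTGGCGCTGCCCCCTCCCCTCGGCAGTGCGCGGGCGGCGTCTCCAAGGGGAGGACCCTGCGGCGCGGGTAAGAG

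Of the other matrix genes, Emilin1, an elastic fibre glycoprotein, was 2.08-fold lower (10.6 ± 3.37 CPM in the RV and 21.2 ± 2.21 CPM in the LV, SD, n = 5 each; edgeR adjusted p = 0.0222), and Col8a1, a short-chain collagen of vessel walls and fibrosis, was 1.62-fold lower (adjusted p = 0.0182), both without overlap. Col1a1, the main chain of scar collagen, measured 27.2, 60.5, 41.5, 19 and 36 CPM in the RV and 64.9, 56.2, 64.8, 50.6 and 79.3 CPM in the LV (log2 -0.88, SE 0.20, adjusted p = 0.0414), with animal PKP2_m1e14_2043 the exception to its direction. Col3a1, the collagen that usually accompanies it, measured 149, 161, 192, 84.2 and 121 CPM in the RV and 135, 173, 182, 86.1 and 142 CPM in the LV (log2 -0.05, SE 0.0748, adjusted p = 0.735). The 2 scar collagens thus did not move in step. No member of the activated fibroblast list was called in either direction (0 of 19 by edgeR, median -0.0251). Resident fibroblast genes gave 2 higher and 1 lower of 14, against 3.44% and 3.55% of all genes. Among them Dpt, a small matrix protein, was 1.26-fold higher (adjusted p = 0.044) and Cd248, a surface protein of pericytes and fibroblasts, 1.63-fold lower (adjusted p = 0.0493).

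Endothelial genes were lower in the RV, with von Willebrand factor as the exception. Of 23 genes tested, 8 were lower and 1 higher (median log2 difference -0.344), against 3.55% and 3.44% of all genes. Of the 23 estimates, 22 were below 0. The median over the list was negative in each animal, between -0.518 and -0.119. Eng encodes endoglin, a co-receptor of endothelial BMP signalling, and measured 112, 184, 167, 161 and 159 CPM in the RV and 168, 249, 225, 215 and 229 CPM in the LV (log2 -0.50, SE 0.0623, edgeR adjusted p = 0.012). Tie1, an endothelial receptor kinase, was 1.45-fold lower (adjusted p = 0.0178) and Cdh5, the cadherin of endothelial junctions, 1.38-fold lower (323 ± 48.8 CPM in the RV and 437 ± 60.2 CPM in the LV, SD, n = 5 each; adjusted p = 0.017). Each of these was lower in 5 of 5 animals. The other called members were Kdr and Flt1, the receptors of vascular growth factor, Fabp4, Aplnr and Sox18, which lay between -0.63 and -0.43 on the log2 scale. Vwf, the clotting factor made chiefly by larger vessels and the endocardium, went the other way, at 161, 193, 218, 198 and 180 CPM in the RV and 75, 153, 105, 119 and 109 CPM in the LV (log2 0.77, SE 0.11, adjusted p = 0.0151), with no overlap. Of 4 endocardium markers tested, none was called (0 by edgeR, summed levels 124 to 144 CPM in the RV and 111 to 160 CPM in the LV), and the smooth muscle and pericyte markers summed to 2760 to 3200 CPM in the RV and 2600 to 3010 CPM in the LV.

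Some antigen presentation and interferon-response genes were lower in the RV. Of 17 MHC genes, 5 were lower and none higher (median log2 difference -0.26), with 11 of 17 estimates below 0 and 6 above. Of 32 interferon-stimulated genes, 6 were lower and none higher (median -0.363), with 31 of 32 estimates below 0. Among all genes tested, 3.55% were called lower. The per-animal medians lay between -0.452 and -0.239 for MHC and between -0.624 and -0.125 for the interferon list. H2-Q7, a non-classical class I molecule, measured 46.3, 72.2, 42.7, 62.9 and 65.9 CPM in the RV, against 91.5, 128, 86, 99.4 and 85.3 CPM in the LV (log2 -0.79, SE 0.11, edgeR adjusted p = 0.0126). H2-Q4 was 1.71-fold lower (adjusted p = 0.017) and H2-Q6 1.55-fold lower (adjusted p = 0.0174). The H2-Q genes are near copies of each other, so how their shared reads were divided is uncertain and they may not count as separate findings. Tap2, which pumps peptides to class I molecules and is not one of these copies, was 1.54-fold lower (16.3 ± 4.01 CPM in the RV and 24.3 ± 2.88 CPM in the LV, SD, n = 5 each; adjusted p = 0.0326).

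Among the interferon-stimulated genes, Oasl2, a relative of the antiviral oligoadenylate synthetases, measured 21.4, 16.3, 17.9, 15.2 and 17.3 CPM in the RV and 29.2, 27.4, 25.5, 31.5 and 31.1 CPM in the LV (log2 -0.74, SE 0.13, edgeR adjusted p = 0.0191). Its RV libraries all lay below its LV libraries, and so did those of Eif2ak2, the kinase PKR that halts translation on double-stranded RNA (1.36-fold lower, adjusted p = 0.0353). Oas2 was 1.63-fold lower (29.3 ± 7.33 CPM in the RV and 46.6 ± 6.79 CPM in the LV, SD, n = 5 each; adjusted p = 0.0182), and Ifit3 1.44-fold lower (adjusted p = 0.0295). The Oas and Ifit genes are families of related sequence, and their reads may be shared between members. Macrophage genes gave 1 higher of 25, near the 3.44% of all genes called higher (Cd163, a scavenger receptor of resident macrophages, 1.5-fold higher, adjusted p = 0.033). Only 2 of 12 lymphocyte genes could be tested, neither of them called.

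Immediate early genes, which respond within minutes to growth signals, flow and tissue handling, were low in the RV. In this list 3 of 22 were lower and none higher, against 3.55% of all genes called lower (median log2 difference -0.34, and between -0.542 and -0.162 per animal). Klf2, a transcription factor of endothelial cells under flow, measured 35.5, 37.6, 29.4, 37.6 and 39.6 CPM in the RV and 58.3, 55.2, 60, 55.3 and 53.9 CPM in the LV (log2 -0.68, SE 0.10, edgeR adjusted p = 0.0165). The 2 groups were tight and well apart. Klf4, its relative, was 1.63-fold lower (adjusted p = 0.0287) and Jun, a subunit of the AP-1 factor, 1.49-fold lower (adjusted p = 0.0352), each without overlap. Of 6 long non-coding RNAs of the nucleus, Neat1, the scaffold of paraspeckles, was 1.26-fold lower (2265 ± 349 CPM in the RV and 2840 ± 546 CPM in the LV, SD, n = 5 each; adjusted p = 0.0462), and Kcnq1ot1, the imprinted antisense RNA of the Kcnq1 locus, was 1.37-fold lower (adjusted p = 0.0378). Malat1 of nuclear speckles did not pass (log2 -0.21, adjusted p = 0.168).

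**Figure D3:**
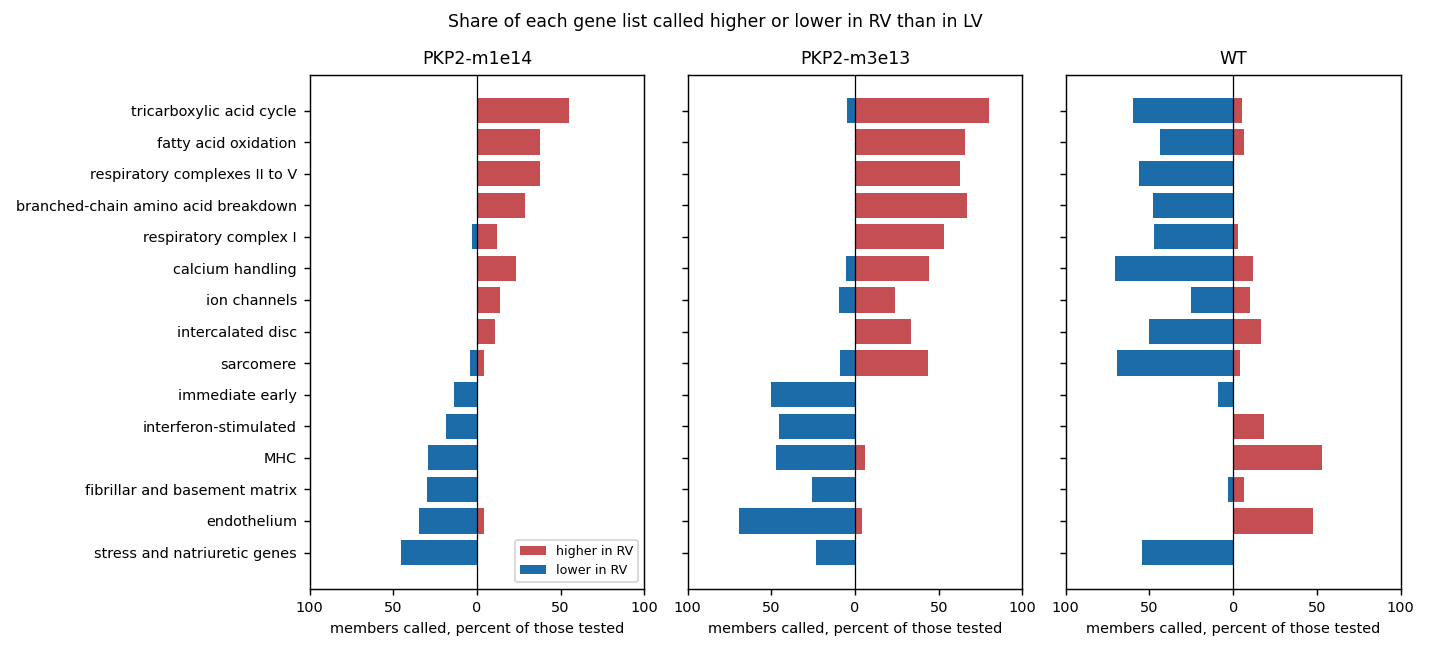
Percent of the tested members of 15 gene lists called higher (red, to the right of 0) and lower (blue, to the left) in the RV than in the LV, in PKP2-m1e14, PKP2-m3e13 and WT from left to right. The bars of the fuel and respiratory lists extend mainly to the right in both vector groups and to the left in WT, and those of the endothelium and MHC lists do the opposite. Over all genes tested, 6.99%, 22.7% and 31.4% were called in PKP2-m1e14, PKP2-m3e13 and WT.

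Few genes of the embryonic heart fields could be tested. Of the right heart field list, 6 of 11 members could be tested, and 2 were higher in the RV, against 3.44% of all genes called higher. The median log2 difference of the list was 0.518, with 5 of 6 estimates above 0. Per animal the median of this list lay between 0.292 and 0.736. Mef2c, a factor of the second heart field that also acts in all heart muscle, measured 109, 69.8, 59.4, 72.1 and 76.7 CPM in the RV and 58.8, 41.7, 45.2, 54.7 and 48.3 CPM in the LV (log2 0.60, SE 0.097, edgeR adjusted p = 0.0178), so that the lowest RV library lay above the highest LV library. The 4 members that did not pass were Fgf10 (log2 1.57, adjusted p = 0.149), Wnt11 (0.44, adjusted p = 0.48), Sema3c (0.38, adjusted p = 0.0665) and Hand2 (-0.66, adjusted p = 0.137). Of the left heart field, 2 of 4 members could be tested and neither was called: Tbx5, a factor of the first heart field, stood at 0.08 (adjusted p = 0.671) and the pacemaker channel Hcn4 at -0.25 (adjusted p = 0.716). Irx5, a factor that patterns repolarisation across the ventricular wall, was 2.39-fold lower, at 6.99, 5.75, 2.66, 4.66 and 10 CPM in the RV and 14.6, 9.88, 10.6, 16.3 and 16.1 CPM in the LV (log2 -1.26, SE 0.24, adjusted p = 0.0234).

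The differences below are the largest among called genes with a named product, at least 5 CPM in the higher ventricle, and 1 side in all 5 animals. They lay mostly in genes of low level. Mdh1, described above, had a larger log2 difference (4.56) but was not higher in the RV of every animal. On the higher side were Rp1, a microtubule protein of photoreceptor cilia (log2 2.12, edgeR adjusted p = 0.0182), Ubxn10, a factor of cilium assembly (1.89), Aox3, an aldehyde oxidase (1.83), Wif1, a secreted inhibitor of Wnt ligands (1.76), Rgs7, a regulator of G protein signalling (1.72), Rasef (1.62), and Retnla, a product of alternatively activated macrophages (1.49). Ubxn10 measured 18.9, 15.3, 14.6, 18 and 13.8 CPM in the RV and 4.52, 6.95, 2.06, 3.12 and 5.86 CPM in the LV (SE 0.27, adjusted p = 0.0146). Aox3 measured 6.2, 10.2, 9.68, 12.9 and 18.6 CPM in the RV and 1.26, 4.01, 2.45, 4.76 and 3.82 CPM in the LV (SE 0.22, adjusted p = 0.012). These 2 were high in every RV library. Slit2, a guidance ligand that is also a marker of the conduction system, was 2.24-fold higher, at 58.1, 34.9, 36.1, 47.2 and 79.9 CPM in the RV and 24.6, 17.8, 23.6, 21 and 21 CPM in the LV (log2 1.17, SE 0.17, adjusted p = 0.016), while Tbx3, the repressor that keeps conduction tissue from turning into working muscle, was 1.61-fold lower (adjusted p = 0.0178). Hist2h2aa2 is a histone gene with a near-identical copy, so its value (log2 1.72) is uncertain.

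On the lower side were Fgfr3, a fibroblast growth factor receptor (log2 -1.76, edgeR adjusted p = 0.0297), Nrn1, a small neuronal membrane protein (-1.66), Fam19a3, a secreted chemokine-like peptide (-1.59), Tox2 (-1.50) and Ushbp1 (-1.50). Nrn1 measured 8.04, 8.55, 13.4, 4.92 and 5.48 CPM in the RV and 32.8, 12, 29.6, 22.5 and 28.2 CPM in the LV (SE 0.28, adjusted p = 0.0182). Ushbp1 measured 3.56, 4.76, 5.44, 3.19 and 6.58 CPM in the RV and 10.1, 10.6, 12.2, 17.4 and 15.4 CPM in the LV (SE 0.23, adjusted p = 0.016). In Ushbp1 the groups did not overlap, and in Nrn1 they overlapped by 1 library on each side. Tsix (log2 -1.37) is transcribed antisense to Xist, and Sfswap, a splicing regulator (-1.36), was lower without overlap.

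**Figure D4:**
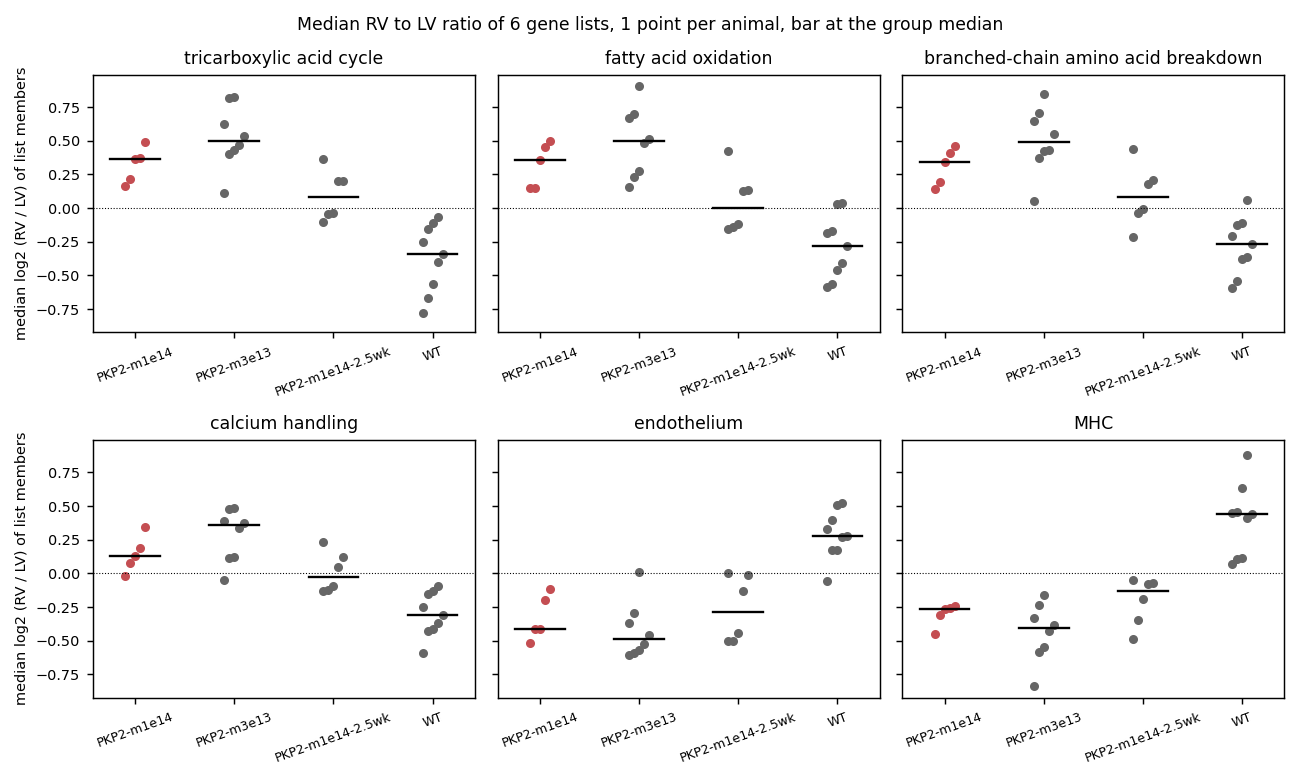
Median log2 ratio of RV over LV across the tested members of 6 gene lists, 1 point per animal and a bar at the median of each group, with PKP2-m1e14 (red) first and WT last. The fatty acid oxidation and tricarboxylic acid cycle medians are above 0 in 5 of 5 PKP2-m1e14 hearts, and the MHC median is below 0 in 5 of 5 PKP2-m1e14 hearts and above 0 in 9 of 9 WT hearts.

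Hearts that never lost Pkp2 showed another difference between their ventricles. In WT, with 9 pairs, 4073 of 12970 genes were called between RV and LV (31.4%), 1907 higher (14.7%) and 2166 lower (16.7%). Counts of list members in WT stand against these shares, and those in PKP2-m1e14, with 5 pairs, against 3.44% and 3.55%. Across 12726 genes tested in both groups, the log2 differences of PKP2-m1e14 and WT had a Pearson correlation of -0.0151, a description across genes, which are not independent. Of 902 PKP2-m1e14 calls tested in WT, 454 were also called there (50.3% of the calls of PKP2-m1e14 and 11.2% of those of WT), and 370 of these went the opposite way. The difference between the differences was tested in 1 model of both groups with a ventricle-by-treatment term, which called 3538 of 14066 genes (25.2%), 1919 with a higher and 1619 with a lower RV-to-LV ratio in PKP2-m1e14. With the relative effective length as a covariate the count was 3672. This comparison holds the deletion, the vector and the Cre together, and these cannot be told apart in it.

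The fuel genes were on opposite sides in the 2 groups. Of the fatty acid oxidation list, 12 were higher and none lower in the RV of PKP2-m1e14, against 2 higher and 14 lower in WT, and 21 members had a higher and 1 a lower ratio in PKP2-m1e14 by the ventricle-by-treatment test. The tricarboxylic acid cycle gave 11 higher and none lower in PKP2-m1e14, against 1 higher and 12 lower in WT, and 15 of 20 members differed by that test, all towards a higher ratio in PKP2-m1e14. Decr1 averaged 428 ± 91.1 CPM in the RV and 269 ± 35.9 CPM in the LV of PKP2-m1e14 (SD, n = 5 each), against 238 ± 56.8 CPM in the RV and 336 ± 63.3 CPM in the LV of WT (SD, n = 9 each), and the difference of the log2 differences was 1.15 (edgeR adjusted p = 2.53e-05). In PKP2-m1e14 its RV level was thus the higher of the pair, and in WT the lower. Pln showed the same crossing, with log2 differences of 0.48 in PKP2-m1e14 and -0.69 in WT (difference 1.17, adjusted p = 2.2e-05), and so did Atp2a2 (0.36 and -0.54, difference 0.91, adjusted p = 7.99e-05), Kcnj2 (0.74 and -0.34, difference 1.09, adjusted p = 4.9e-05) and Gja1 (0.49 and -0.42, difference 0.92, adjusted p = 2.23e-05).

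Markers of ventricular cardiomyocytes moved with these lists. Of 8, 1 was higher and none lower in PKP2-m1e14 (median log2 difference 0.14), against none higher and 6 lower in WT (median -0.34), and by the ventricle-by-treatment test 5 had a higher and 1 a lower ratio in PKP2-m1e14. Their part in the crossing of the fuel, calcium and junction genes was not tested.

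Genes of the endothelium and MHC lists crossed in the other direction. So did the long non-coding RNAs of the nucleus, with 2 lower of 6 in PKP2-m1e14 (median -0.17), against 6 higher of 6 in WT (median 0.605), and 5 of 6 with a lower ratio in PKP2-m1e14 by the ventricle-by-treatment test. The endothelium list gave 1 higher and 8 lower in PKP2-m1e14, against 11 higher and none lower in WT, and 18 of 23 members had a lower ratio in PKP2-m1e14 by the ventricle-by-treatment test (10 with the relative effective length as a covariate). The MHC list gave none higher and 5 lower in PKP2-m1e14, against 9 higher and none lower in WT. Other immune lists did not cross. Complement genes gave 2 higher and none lower in PKP2-m1e14, and 4 higher and none lower in WT. Macrophage genes gave 1 higher and none lower in PKP2-m1e14, and 7 higher and 1 lower in WT. Eng had log2 differences of -0.50 in PKP2-m1e14 and 0.48 in WT (difference -0.97, edgeR adjusted p = 6.17e-05), and H2-Q4 of -0.77 and 0.41 (difference -1.17, adjusted p = 5.78e-05). Myh7b was lower in the RV of PKP2-m1e14 and was not called in WT, at 33.9 ± 7.81 CPM in the RV and 87.3 ± 10.2 CPM in the LV of PKP2-m1e14 (SD, n = 5 each), against 87.6 ± 46.4 CPM in the RV and 71.3 ± 13.3 CPM in the LV of WT (SD, n = 9 each; difference -1.58, adjusted p = 0.000178). Schwann cell markers were higher in the RV of WT, with 6 of 6 called there and 0 of 6 called by edgeR in PKP2-m1e14 (median log2 differences 0.092 in PKP2-m1e14 and 1.16 in WT).

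Some differences were shared with WT. Nppb was lower in the RV of both groups (log2 -1.20 in PKP2-m1e14 and -1.92 in WT, difference 0.73, edgeR adjusted p = 0.0646), and so were Ankrd1 (-1.37 and -1.22, difference -0.14, adjusted p = 0.763), Myh7 (-1.31 and -1.02, difference -0.29, adjusted p = 0.542) and Irx5 (-1.26 and -1.35, difference 0.09, adjusted p = 0.831). Rp1 (2.12 and 2.26), Aox3 (1.83 and 1.70) and Rgs7 (1.72 and 1.43) were higher in the RV of both. For these 7 genes no difference between PKP2-m1e14 and WT passed the test, which does not show that the ventricles of the 2 groups were alike. Pkp2 itself was lower in the RV of WT, where it comes from the animal's own gene alone (log2 -0.09 in PKP2-m1e14 and -0.37 in WT, WT adjusted p = 0.00393), and the difference between the groups did not pass (0.29, adjusted p = 0.127).

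**Figure D5:**
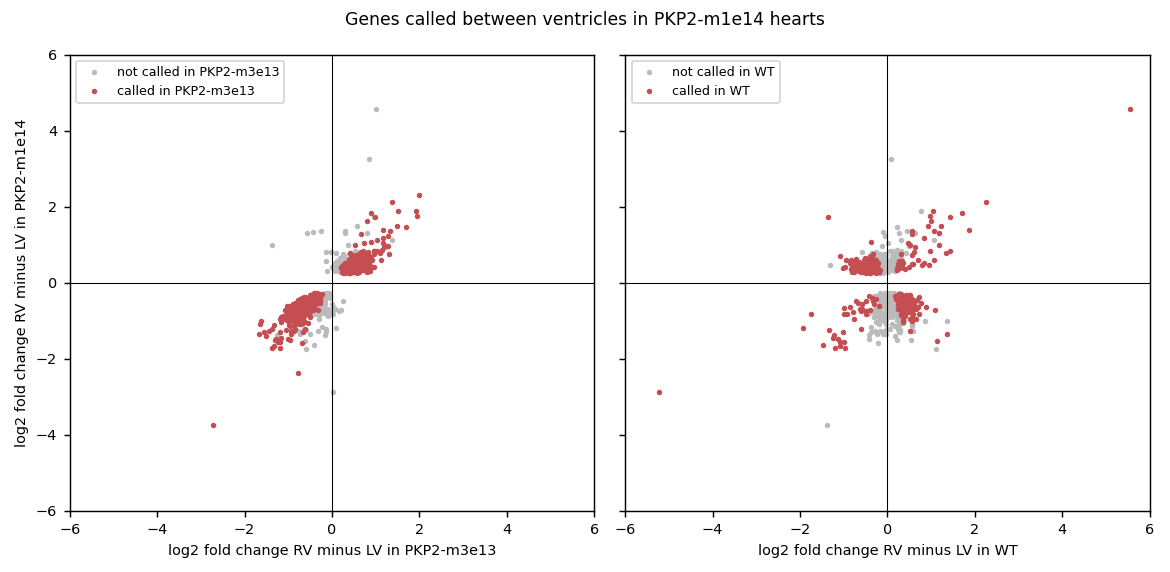
Log2 difference of RV minus LV in PKP2-m1e14 (vertical) for the genes called there, against the same difference in PKP2-m3e13 (left panel) and WT (right panel), in red where the gene was also called in that group. The axes stop at -6 and 6, which leaves out 2 genes (Gm5641 and Gm28439), and most points share their sign with PKP2-m3e13, while the red points of WT fall mostly in the quadrants of opposite sign.

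The ventricles of the lower-dose hearts differed in the way those of PKP2-m1e14 did. In PKP2-m3e13, with 8 pairs, 3004 of 13235 genes were called (22.7%), 1565 higher and 1439 lower in the RV. Across 12762 genes the log2 differences of the 2 doses had a Pearson correlation of 0.579. Of the 905 genes called in PKP2-m1e14, 723 were also called in PKP2-m3e13 (79.9% of the calls of PKP2-m1e14 and 24.2% of those of PKP2-m3e13), all in the same direction. No gene differed between the doses by the ventricle-by-treatment test in edgeR (0 of 14205, with 845 at an unadjusted p below 0.05), which does not show that the doses acted alike. Pln had log2 differences of 0.48 in PKP2-m1e14 and 0.81 in PKP2-m3e13, Decr1 of 0.64 and 0.89, Uqcrc2 of 0.62 and 0.85, and Myh7b of -1.40 and -1.50. Some load genes parted more, with Ankrd1 at -1.37 in PKP2-m1e14 and -0.16 in PKP2-m3e13, and Nppb at -1.20 and 0.08, differences that did not pass the test between doses. Others were called lower in the RV at both doses, with Nppa at -1.49 in PKP2-m1e14 and -1.01 in PKP2-m3e13, and Ace at -0.39 and -0.34.

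With the dose of 1e14 given later, few genes separated the ventricles. In PKP2-m1e14-2.5wk, with 6 pairs, 30 of 13277 genes were called (0.226%), 24 higher (0.181%) and 6 lower (0.0452%) in the RV, and 1922 had an unadjusted p below 0.05. The libraries of animal PKP2_m1e14_2.5wk_5814 did not match each other in sex-linked genes, and their deviations from the ventricle means had a correlation of -0.0442, against a median of -0.014 with other animals, so they may not come from 1 heart. Without this animal 1 gene was called. With all 6 pairs, of the 29 called genes that were tested in both groups, 13 were called in PKP2-m1e14 as well, all in the same direction (1.44% of the calls of PKP2-m1e14 and 44.8% of those of PKP2-m1e14-2.5wk), and the correlation across 12779 genes was 0.343. Slit2 was among the genes higher in the RV of both, at log2 1.17 in PKP2-m1e14 and 1.65 in PKP2-m1e14-2.5wk (edgeR adjusted p = 0.000466 in PKP2-m1e14-2.5wk), as was Ubxn10 (1.89 and 1.79). The median of the fatty acid oxidation list was 0.317 in PKP2-m1e14 and 0.0239 in PKP2-m1e14-2.5wk, and that of the endothelium list -0.344 and -0.274. The test of the difference between early and late dosing called no gene in edgeR (0 of 13961, with 1215 at an unadjusted p below 0.05, and 0 without animal PKP2_m1e14_2.5wk_5814), so that a difference between these 2 groups was not detectable with 5 and 6 pairs.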

How the data were processed

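RNA sequencing was performed on RV and LV tissue, and the libraries were processed by the authors with fastp, Salmon 1.8.0 and tximport on GRCm39 transcripts. Labels and methods name both polyadenylated RNA and a ribosomal depletion kit. The deposited counts are the authors' estimated counts of each gene in each library, as Salmon gave them, without normalisation. The deposited TPM table gives the same runs in TPM, and the deposited effective lengths (in bases per gene and library) are the authors' other output of Salmon. Reads that fit several similar genes were divided by the authors' software.

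Estimated counts were rounded to whole numbers. The 37 mitochondrially encoded genes and 1 row without a gene name (at most 0.000897% of a PKP2-m1e14 library) were left out. RV was tested against LV with edgeR 4.0.16 in R 4.3.3 (TMM factors, filterByExpr, quasi-likelihood F test, animal as a block, Benjamini-Hochberg, threshold 0.05), in the libraries of 1 group at a time, and ventricle-by-treatment terms in 2 groups together. CPM values used TMM factors over all 64 libraries. Single values were tested with exact two-sided sign-flip permutation tests over animals. Log2 ratios per animal used a pseudocount of 0.5 CPM. The tests were first tested on simulated data.

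The pairs come from the animal numbers in the titles, both ventricles of 1 animal sharing a number. In 5 of 5 PKP2-m1e14 animals the deviations of the paired libraries from their ventricle means correlated more with each other (0.0464 to 0.143) than with those of other animals (medians -0.061 to 0.0154). p-values measure the spread between these animals.

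The members and the 46 gene and marker lists (849 of 854 symbols found in the table, 9 of them under another name) were chosen with earlier results of these data known. Named genes were Pkp2, the genes that the study measured by RT-qPCR, both heart field lists, up to 4 members of each other list with the smallest p, and the largest differences among called genes above 5 CPM and on 1 side in all 5 animals (10 in each direction; genes without a named product were skipped, 1 higher and 10 lower) or in the comparison with WT (5 in each direction, with 1 above and 3 below skipped). Other named members are Hadha and those given only with a log2 difference, chosen after their values were seen. The lists were described by counts and medians, with no test.

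Alternatives were a fit without the replicate block, DESeq2 1.42.0, relative log expression factors, no filter on low counts, an effective length offset, the relative effective length as a covariate, mitochondrially encoded genes kept, limma 3.58.1 and an unequal-variance test on log2(TPM + 1), and each animal left out. Promoters came from RefSeq (GRCm38.p6) and gene positions from GENCODE (GRCm39), where 101 of 102 genes examined matched. The untreated cKO libraries were not used here, and a few genes that the rule names are not reported here.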

Additional observations from a re-analysis of the deposited data

Results flagged for a closer look

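In 12 of 208 sets of 5 values, 1 library stood far from the other 4 by Dixon's criterion (critical ratio 0.71), where chance gives about 1 set in 20. The mitochondrial share was low in the RV of animal PKP2_m1e14_5726 (23.8%). Animal PKP2_m1e14_2043 had a low level of Ndufa13 in both its RV (29 CPM, next 45.2) and its LV (34.1 CPM, next 57.5), a high level of Myh7 in its RV (3167 CPM, next 629), of Hand2, a right heart field factor, in its RV (40.4 CPM), of Eif2ak2 in its RV (36.9 CPM), and in its LV of Pfkfb1, an enzyme that sets a regulator of glycolysis (42.6 CPM), and of Nol8, a nucleolar protein (9.88 CPM, the other LV libraries at 0). Animal PKP2_m1e14_5726 had a low level in its RV of Kcnj3 (270 CPM) and of Hlf, a clock-driven transcription factor (95.2 CPM). Hand2 was high in the LV of animal PKP2_m1e14_2034 (66.7 CPM), and Retnla was high in the RV of animal PKP2_m1e14_5825 (10.1 CPM).

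For 31 of 37 named genes the RV-minus-LV difference of PKP2-m1e14 differed from that of WT by the ventricle-by-treatment test of edgeR (adjusted p below 0.05). Over all genes tested 25.2% did so (3538 of 14066), and among the 905 genes called in PKP2-m1e14 75.5% did (683). Many of the 37 were named for a small p in PKP2-m1e14 itself, so their count does not stand for genes at large. Values are log2 differences of the differences, PKP2-m1e14 minus WT. Among calcium and channel genes they were 1.17 for Pln, 1.03 for Trdn, 0.91 for Atp2a2, 0.87 for Cacna2d1, 1.09 for Kcnj2 and 0.82 for Kcnd2. Junction genes gave 0.92 for Gja1, 0.73 for Dsc2 and 0.73 for Dsg2. Mitochondrial genes gave 1.12 for Uqcrc2, 0.90 for Sdhb, 1.15 for Decr1, 0.94 for Acadl, 1.06 for Dlat, 1.17 for Mpc1, 1.10 for Ppm1k and 1.20 for Aldh6a1, and the transcription factor Mef2c gave 1.56. In the other direction, Myh7b gave -1.58, Col4a1 -0.77, Col4a2 -0.81, Eng -0.97, Tie1 -0.93, Cdh5 -0.65, Vwf -0.58, H2-Q7 -0.98, H2-Q4 -1.17, Oas2 -1.09, Klf2 -0.78, Klf4 -0.82 and Neat1 -0.84. Kcnd2 and Vwf were higher in the RV of both groups and differed in size. For Kcnd2 the difference from WT was called in 13 of 14 alternatives, and for Vwf in 4 of 14. The relative effective length differed between the ventricles of WT by more than between those of PKP2-m1e14 (0.0243 in PKP2-m1e14 and 0.0733 in WT). Its part in these differences was examined only through the covariate fit, in which all 31 kept their direction and 3 were no longer called.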

How the results depend on the processing

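With 5 pairs of libraries, the number of genes called between the ventricles of PKP2-m1e14 depended on the processing. Direction was followed for 91 of them, many chosen for a small p or for 1 side in all animals, and these kept their sign in each of the 14 alternatives, as did the 31 differences from WT in theirs. Against 905 genes, edgeR without the replicate block called 382, with the effective length offset 483, and with the relative effective length as covariate and the block 1 (1483 at an unadjusted p below 0.05). The tests on log2(TPM + 1) called 106 (limma) and 69 (unequal variances), while DESeq2, relative log expression factors, no filter and mitochondrially encoded genes kept gave 1294, 923, 938 and 906. With 1 animal left out, 0 (without PKP2_m1e14_5822, 2317 at an unadjusted p below 0.05 in edgeR) to 1046 (without PKP2_m1e14_2043) were called. Without animal PKP2_m1e14_5822 no member of any list was called, and the list medians were -0.67 for stress genes, -0.3 for matrix, -0.323 for endothelium, -0.31 for MHC and -0.364 for interferon-stimulated genes. These 5 medians and those of the fuel lists kept their sign in 14 of 14 alternatives. The cause of the lost calls was not tested.

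The comparison with WT gave 2428 to 3742 calls over the alternatives and 2738 to 3222 with a PKP2-m1e14 animal left out, against 3538. Within WT, the length covariate with the block called 2183, against 4073. In PKP2-m1e14-2.5wk, against 30, no block gave 3, the length covariate 6, and leaving out animal PKP2_m1e14_2.5wk_5814, whose libraries may not come from 1 heart, gave 1. The test of early against late dosing called 1 gene without the replicate block and 0 to 1 with an animal left out (1 without PKP2_m1e14_2043). The mean differences with 1 animal left out ranged from -0.153 to -0.0129 for Pkp2 (log2 CPM), from -5.27 to -2.63 percentage points for the mitochondrial share and from 0.0146 to 0.0331 for the length. Genes that were not called and changed sign were Tbx5 (-0.0123 without PKP2_m1e14_2043 to 0.126 without PKP2_m1e14_5726), Hcn4 (0.135 with the length covariate, -0.648 to 0.0206 with 1 animal left out) and Col3a1 (0.211 with the length offset, 0.223 in both tests on log2(TPM + 1), -0.0880 to 0.00368 with 1 animal left out). Among differences from WT, Ankrd1 ranged from -0.330 to 0.0778 and Rp1 from -0.349 to 0.185 with 1 animal left out, and Rp1 stood at 0.142 without the replicate block. The cause of these changes was not tested. The depth of 6617433 to 9203308 nuclear counts limits genes of a few CPM most.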

Other observations

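Single genes of the clock, complement and glycolysis lists were called in PKP2-m1e14. Over all genes tested, 3.44% were called higher in the RV and 3.55% lower. Of 18 clock genes, Hlf was 1.24-fold higher in the RV (125 ± 16.7 CPM in the RV and 99.7 ± 13.7 CPM in the LV, SD, n = 5 each; edgeR adjusted p = 0.0323), while Nr1d1, the repressor REV-ERB alpha, was 1.28-fold lower (adjusted p = 0.0256) and Per1 1.57-fold lower (adjusted p = 0.0364). Of 18 complement genes, 2 were higher and none lower. C3, the central component of the cascade, measured 406, 734, 479, 575 and 551 CPM in the RV and 232, 622, 325, 433 and 397 CPM in the LV, and was the higher in the RV of 5 of 5 animals (log2 0.48, SE 0.0852, adjusted p = 0.0211). Cd59a, which shields cells from the end of that cascade, was 1.59-fold higher without overlap (106 ± 22.2 CPM in the RV and 65 ± 6.28 CPM in the LV, SD, n = 5 each; adjusted p = 0.0168). In glycolysis, Pfkp, the platelet form of phosphofructokinase, was 1.54-fold lower (adjusted p = 0.0178) and Pfkfb1 1.42-fold higher (adjusted p = 0.0379), of 20 genes tested. The chaperone list gave no call in PKP2-m1e14 (0 of 20 by edgeR, median -0.00385), against 11 of 20 lower in WT. In WT, 16.7% of all genes were called lower, against 3.55% in PKP2-m1e14.

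Nol8 measured 25.2, 10.9, 14, 27.4 and 16 CPM in the RV of PKP2-m1e14, against 0, 9.88, 0, 0 and 0 CPM in the LV, a difference that did not pass (edgeR adjusted p = 0.052), while its ratio differed from that of WT (log2 7.80, adjusted p = 0.0111). Mdh1 showed a like scatter in PKP2-m1e14 and was higher in the RV of WT as well (log2 4.56 in PKP2-m1e14 and 5.56 in WT). How reads were assigned to such genes was not tested.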
